A study of Mus musculus with 26 samples.

Results

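Oxidative phosphorylation was followed as a set of 107 genes, of which 94 are nuclear and 13 are encoded by the mitochondrial genome. The genes were chosen by name among the 22046 protein-coding genes of the small peritoneal macrophage (SPM) table: all names starting with Nduf, Uqcr, Atp5, Cox4i, Cox5, Cox6, Cox7 or Cox8, the genes Sdha to Sdhd, and the mitochondrial genes starting with mt-Nd, mt-Co, mt-Cytb or mt-Atp. The rule uses gene names and no expression value, but it was set with earlier results of these data known. Of the 107 identifiers, 106 were listed in all 3 tables. The remaining identifier is a second, overlapping model named Atp5o, which was listed at 0 in the SPM and lung tables. By complex, the nuclear genes comprised 36 subunits or associated proteins of complex I, 8 assembly factors of complex I, 4 genes of complex II, 8 of complex III, 20 of complex IV and 18 of complex V. The mitochondrial genes comprised 7 of complex I, 1 of complex III, 3 of complex IV and 2 of complex V.

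RNA from FACS sorted cells was sequenced to compare mice lacking the atypical chemokine receptor ACKR2 with wild type (WT) mice, in bone marrow monocytes, SPMs and MHCII negative lung macrophages. All mice were naive females of 8 to 10 weeks. WT mice were purchased C57BL/6J animals, while ACKR2-/- mice came from a separately bred homozygous colony, so genotype and origin cannot be told apart. There were 4 samples per genotype of monocytes and of SPMs, each pooled from 5 mice, and 5 samples per genotype of lung macrophages. Libraries held between 12781144 (WT SPM 3) and 35400034 (ACKR2-/- SPM 4) counts on genes.

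The mitochondrial respiratory chain passes electrons from NADH through complex I, or from succinate through complex II, to complex III and then to complex IV, which reduces oxygen. Complexes I, III and IV pump protons across the inner membrane, and complex V uses the resulting gradient to make ATP. Complexes I, III, IV and V hold subunits made from mitochondrial DNA as well as nuclear ones, whereas complex II is entirely nuclear encoded. Several complex IV subunits exist as a ubiquitous form and as a form restricted to tissues such as heart, skeletal muscle, lung or testis.

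Promoters of the nuclear genes are shown first because the genes lie on many chromosomes and some of them hold sequence elements that their names do not reveal. Of 93 nuclear genes, 76 had at least 1 promoter, defined as the 250 bases before and 50 bases after a start, in the RefSeq table (GRCm38.p6), which holds 32851 promoters of 27025 genes. The 10-letter palindrome bound by nuclear respiratory factor 1, spelled out in capitals below, stood on either strand in the promoters of 7 of the 76 genes (9.21%), against 1.07% of all genes. The windows around it are printed 5′ to 3′ on the gene's strand.
Atp5g2: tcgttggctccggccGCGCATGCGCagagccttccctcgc
Atp5k: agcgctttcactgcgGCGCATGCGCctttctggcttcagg
Cox6a1: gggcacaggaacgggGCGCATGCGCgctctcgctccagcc
Ndufa11: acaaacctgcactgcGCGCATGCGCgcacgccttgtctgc
Ndufaf4: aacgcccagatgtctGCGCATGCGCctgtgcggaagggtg
Ndufaf5: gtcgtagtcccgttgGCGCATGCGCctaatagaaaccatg
Uqcrc1: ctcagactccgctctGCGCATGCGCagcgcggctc
These windows lie, in GRCm38.p6, at chr15:102671065-102671104 (minus strand), chr5:108434425-108434464 (minus), chr5:115349096-115349135 (minus), chr17:56717687-56717726 (plus), chr4:24897955-24897994 (plus), chr2:140170647-140170686 (plus) and chr9:108936663-108936697 (plus). They belong to complexes I, III, IV and V, so the element is not restricted to genes of a single complex.

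The promoter of Cox6a1, the ubiquitous form of a complex IV subunit, is shown whole because it holds a further element beside this motif, the letters CCGGAAG recognised by ETS family factors, here on the opposite strand. It lies at chr5:115348909-115349208 on the minus strand, with both elements in capitals.
Cox6a1: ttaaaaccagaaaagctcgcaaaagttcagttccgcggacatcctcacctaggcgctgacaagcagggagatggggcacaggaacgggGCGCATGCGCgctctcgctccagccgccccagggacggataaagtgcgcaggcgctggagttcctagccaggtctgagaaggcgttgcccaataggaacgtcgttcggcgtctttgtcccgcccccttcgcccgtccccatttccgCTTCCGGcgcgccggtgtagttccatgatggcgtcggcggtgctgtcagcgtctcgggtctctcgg
The letters CCGGAAG were found in the promoters of 18 of the 76 genes (23.7%) against 9.93% of all genes. The shorter core GCATGCGC, which the full motif contains, was found in 12 genes (15.8%, against 3.05%). The letters TATAAA were found in 7 genes (9.21%, against 15.7%) and CAGCTG in 6 (7.89%, against 18.3%), both lower shares than among all genes. The letters CCAAT (44.7% against 41.1%) and GGGCGG (46.1% against 38.2%) were about as frequent as elsewhere.

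The 11-letter motif of the factor YY1, in capitals below and searched on both strands, stood in the promoters of 5 of the 76 genes (6.58%, against 0.755% of all genes). The shorter core AAGATGGC, which the full motif contains, stood in 11 genes (14.5%, against 3.19%), among them Atp5f1, Atp5j and Atp5j2 of complex V. The 5 genes with the full motif are shown because all encode complex I subunits or a complex I assembly factor. These groups hold 36 and 8 of the 94 nuclear genes.
Ndufa9: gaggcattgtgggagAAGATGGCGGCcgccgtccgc
Ndufaf8: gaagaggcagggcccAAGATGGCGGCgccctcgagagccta
Ndufs4: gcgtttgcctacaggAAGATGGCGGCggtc
Ndufs6: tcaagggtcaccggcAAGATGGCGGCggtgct
Ndufs7: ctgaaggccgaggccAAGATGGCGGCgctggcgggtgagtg
The windows lie at chr6:126849095-126849130 (minus), chr11:120098929-120098969 (plus), chr13:114388045-114388074 (minus), chr13:73328433-73328464 (minus) and chr10:80249458-80249498 (plus). A match describes letters in a promoter and is not evidence that the factor was bound in these cells. The shares among all genes were not matched for base composition or expression.

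The mitochondrial genes needed a different kind of sequence check, because part of the mitochondrial genome has a copy on chromosome 1 that is annotated as pseudogenes. In the reference, 150-base windows found exactly in another annotated transcript made up 99.44% of mt-Atp6, 99.44% of mt-Co2, 99.84% of mt-Co3, 96.98% of mt-Nd3 and 97.97% of mt-Nd4l. For mt-Nd4 the share was 59.15% and for mt-Co1 23.64%, while mt-Cytb, mt-Nd1, mt-Nd2, mt-Nd5, mt-Nd6 and the short mt-Atp8 had none. The copies lie at chr1:24611535-24616197 on the minus strand (GRCm38), apart from a short match of mt-Co2 on chromosome 2. Where the copy begins or ends is shown for mt-Co1 and mt-Nd4, and a fully copied stretch for mt-Co2, with the letters shared with chromosome 1 in capitals.
mt-Co1: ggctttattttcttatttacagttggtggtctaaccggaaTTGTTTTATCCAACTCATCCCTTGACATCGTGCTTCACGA
mt-Nd4: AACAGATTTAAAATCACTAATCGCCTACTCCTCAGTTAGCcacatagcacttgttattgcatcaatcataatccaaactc
mt-Co2: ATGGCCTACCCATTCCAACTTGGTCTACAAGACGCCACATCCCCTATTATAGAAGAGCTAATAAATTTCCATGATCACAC
These stretches are chrMT:6354-6433, chrMT:11003-11082 and chrMT:7013-7092, all on the plus strand of GRCm38. Bases 1067 to 1545 of mt-Co1, 1 to 876 of mt-Nd4 and 1 to 681 of mt-Co2 are shared. A read from a shared stretch matches both places equally, so counts of the 5 nearly wholly copied genes are uncertain, and the copies were themselves counted. Over all monocyte libraries the copy of mt-Atp6 (Gm10925) held 13777 counts, that of mt-Co3 (Gm28437) 9285, that of mt-Co2 (Gm28661) 4616 and that of mt-Nd3 (Gm28438) 224.

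The labels were checked before the genes were compared. Ackr2 counts in the WT lung libraries were 469, 436, 150, 372 and 0, against 50, 38, 25, 7 and 7 in the ACKR2-/- lung libraries, so the library labelled WT 5 stood below every ACKR2-/- library. Ackr2 counts were 5, 8, 7 and 9 in WT SPMs and 0 in all ACKR2-/- SPMs, and only 2 reads in all were counted in WT monocytes. In the tables, summed monocyte markers were at 8244.5 to 8916.9 CPM (gene counts scaled to a common library total) in WT and 4922.9 to 9421.4 in ACKR2-/- monocytes, against at most 2560.1 in any other library. Summed SPM markers were at 110590 CPM or more in all SPM libraries, at 6193.4 to 9189.1 in ACKR2-/- lung and at 6234.7 to 86518 in WT lung, the highest being the library labelled WT 3. H2-Ab1, an MHCII gene, was at 21242 CPM in that library, against 565.78 to 1707.8 CPM in the other WT lung libraries. It was at 253.17 to 1453.4 CPM in ACKR2-/- lung libraries and 24425 to 37813 CPM in SPM libraries. Summed lung interstitial macrophage markers were higher in SPMs than in most lung libraries. They were at 13646 to 17759 CPM in WT and 10014 to 17807 CPM in ACKR2-/- SPMs. ACKR2-/- lung libraries were at 2254.2 to 4816.5 CPM, and WT lung libraries at 3705.3 to 14439 CPM with a median of 4177.6. These markers therefore do not single out the lung cells. The 8 epithelial markers summed to 419 to 16965 CPM in WT and 253 to 19016 CPM in ACKR2-/- lung libraries, against at most 5.81 CPM in monocytes and SPMs. The 10 T cell markers summed to 4.06 to 5.97 CPM in WT monocytes and 74.1 to 136 CPM in ACKR2-/- monocytes, and the 9 neutrophil markers to 28856 to 69470 CPM in WT and 13800 to 45936 CPM in ACKR2-/- monocytes. In bulk samples, fewer cells of a type and less RNA per cell cannot be told apart.

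The nuclear genes took a similar share of all gene counts in monocytes and SPMs and a smaller share in lung macrophages. In WT libraries the share was 2.01% ± 0.103 (SD, n = 4) in monocytes, 1.92% ± 0.175 (n = 4) in SPMs and 1.04% ± 0.156 (n = 5) in lung macrophages. In ACKR2-/- libraries it was 2.37% ± 0.226, 2.03% ± 0.0506 and 1.2% ± 0.236. The ranges of the WT lung libraries (0.872 to 1.25%) lay below those of WT monocytes (1.90 to 2.15%) and WT SPMs (1.72 to 2.14%), which overlapped each other.

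Within monocytes, the nuclear share was 1.90, 1.99, 2.0 and 2.15% in the WT libraries and 2.25, 2.71, 2.23 and 2.30% in the ACKR2-/- libraries. All ACKR2-/- values were above all WT values, although the lowest ACKR2-/- library and the highest WT library differed by little and ACKR2-/- 2 stood well above the rest. The mitochondrial share did not follow the same libraries. It was 0.262, 0.258, 0.343 and 0.355% in WT monocytes and 1.00, 0.241, 0.328 and 0.640% in ACKR2-/- monocytes, so ACKR2-/- 1 and 4 were above all WT libraries and ACKR2-/- 2, highest for nuclear genes, was lowest of all 8.

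**Figure D1:**
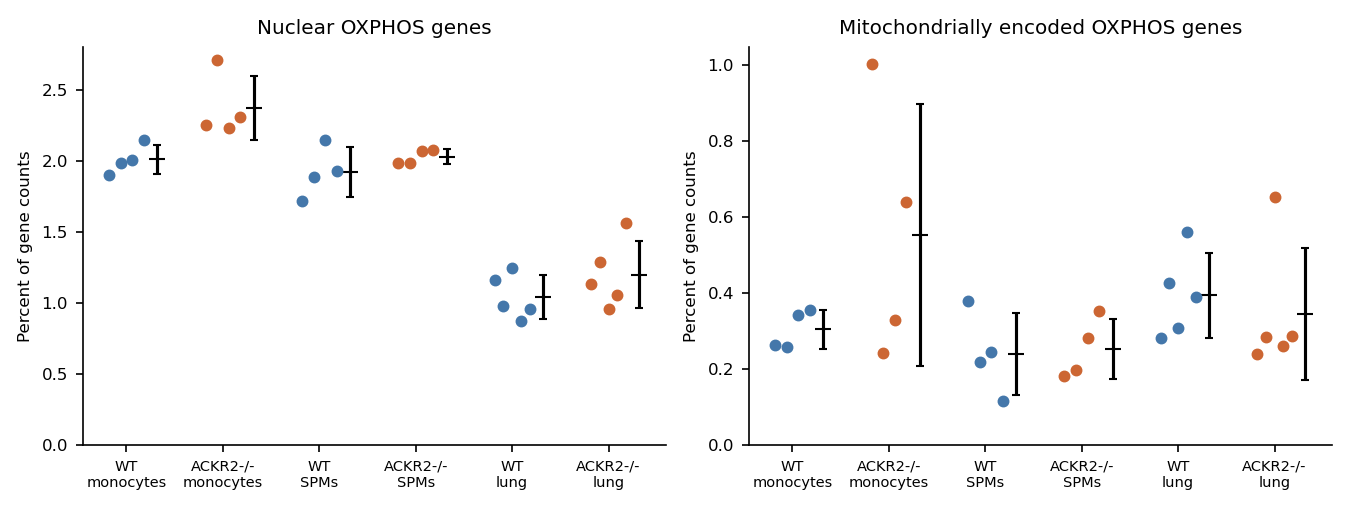
Share of all gene counts, in percent (y axis), taken by the nuclear and the mitochondrial oxidative phosphorylation genes in each library (points), by cell type and genotype (x axis), with mean and SD. Nuclear shares in WT lung macrophages (0.872 to 1.25%) lie below those in WT monocytes (1.90 to 2.15%), and the mitochondrial share of ACKR2-/- monocytes spreads from 0.241 to 1.00%.

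In SPMs the mitochondrial share was 0.379, 0.218, 0.245 and 0.117% in WT and 0.180, 0.198, 0.281 and 0.352% in ACKR2-/- libraries. In lung macrophages it was 0.281, 0.426, 0.309, 0.562 and 0.390% in WT and 0.238, 0.283, 0.654, 0.262 and 0.287% in ACKR2-/- libraries. Genotypes overlapped in both cell types, and a single ACKR2-/- lung library, number 3, was above all other lung libraries. No test was run on these sums.

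ACKR2-/- monocytes were compared with WT monocytes across 13246 genes, including 87 nuclear and 12 mitochondrial oxidative phosphorylation genes. A gene was called when the Benjamini-Hochberg adjusted p of edgeR's quasi-likelihood test was under 0.05 and the log2 fold change was over 0.5 in size. A single member, Cox6a2, was called higher and none lower, while among all genes 0.913% were called higher and 0.355% lower. Of the nuclear genes, 70 of 87 had a positive log2 fold change, against 50.4% of all genes tested, with a median of 0.15 (all genes 0.00). At an unadjusted p under 0.05, 12 nuclear genes were higher (8.83% of all genes) and 2 lower (8.17%). The shift of the nuclear genes was small and rested partly on ACKR2-/- 2, without which 52 of 87 were higher and the median was 0.07.

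Cox6a2 encodes the heart and skeletal muscle form of complex IV subunit 6a, and lies at chr7:128205435-128206387 on the minus strand (GRCm38). Its counts were 12, 19, 24 and 24 in WT monocytes and 254, 87, 78 and 112 in ACKR2-/- monocytes. Scaled by TMM, these were 0.782, 1.18, 1.34 and 1.34 CPM in WT and 13.7, 4.95, 4.10 and 5.95 CPM in ACKR2-/- libraries. The genotypes did not overlap, and ACKR2-/- 1 was the highest. The log2 fold change was 2.61 (SE 0.40, edgeR quasi-likelihood adjusted p = 0.00709), and it stayed at 2.09 (edgeR adjusted p = 0.00296) without ACKR2-/- 1. The overlapping gene on the opposite strand, Itgad, held 20 counts over all monocyte libraries. Its ubiquitous partner Cox6a1 was at 572 ± 31.4 CPM without TMM scaling in WT monocytes (SD, n = 4), and Cox6a2 at 1.11 ± 0.247 on that scale.

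Genes of other cells were higher in the same libraries. Siglech, a receptor of plasmacytoid dendritic cells, was at 4.88, 4.54, 3.56 and 5.26 CPM in WT and 78.6, 18.6, 17.2 and 26.3 CPM in ACKR2-/- monocytes, with a log2 fold change of 2.95 (edgeR adjusted p = 0.00795). Klk1, a kallikrein singled out after its values were seen, was at 0.912, 1.87, 0.556 and 1.17 CPM in WT and 25.8, 6.43, 6.26 and 10.3 CPM in ACKR2-/- monocytes. In Cox6a2 and Siglech ACKR2-/- 1 was highest and ACKR2-/- 4 next, as in Klk1, for which this was seen before it was chosen. The order is not particular to these genes. It was the same for mt-Cytb (2425 and 1775 CPM) and mt-Nd4 (650 and 476 CPM). Cd3d, a subunit of the T cell receptor complex, was at 0.521 to 0.946 CPM in WT and 13.8 to 17.7 CPM in ACKR2-/- monocytes, with ACKR2-/- 4 highest. The 7 dendritic cell markers summed to 54.8 to 78.4 CPM in WT and 66.4 to 173 CPM in ACKR2-/- monocytes, and 2 of them, Siglech and Ccr7, were called higher. Of the 10 T cell markers 9 were called higher, as were Klre1 of the NK cell list and Igkc of the B cell list, and Alox15 of the large peritoneal macrophage list was called lower. The part of other cells in the Cox6a2 difference was not tested.

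**Figure D2:**
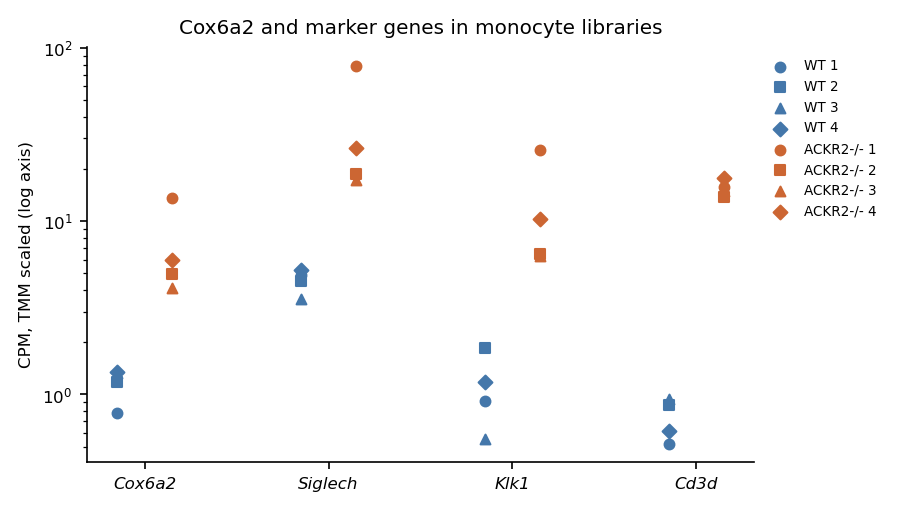
TMM scaled CPM on a log axis (y) of Cox6a2, Siglech, Klk1 and Cd3d (x axis) in each monocyte library, with 4 WT and 4 ACKR2-/- libraries marked by number. ACKR2-/- 1 is highest for Cox6a2 (13.7), Siglech (78.6) and Klk1 (25.8), and genotypes do not overlap for any of the 4 genes. Klk1 was singled out after its values were seen.

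Among the other nuclear genes, the smallest p-values in the monocyte comparison fell on accessory subunits. Ndufb4, an accessory subunit of complex I, was at 103, 110, 97.5 and 133 CPM in WT and 172, 155, 141 and 164 CPM in ACKR2-/- monocytes. These groups did not overlap, and the log2 fold change was 0.51 (SE 0.13), but the edgeR adjusted p of 0.0809 missed the threshold. DESeq2 did call it (adjusted p = 0.00915), and scaling by total counts gave an edgeR adjusted p of 0.0475. Cox7b, a small complex IV subunit, was at 197, 213, 204 and 223 CPM in WT and 373, 251, 245 and 306 CPM in ACKR2-/- monocytes. Groups again did not overlap, and the log2 fold change of 0.49 (SE 0.15) had an edgeR adjusted p of 0.133.

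In the other direction, Uqcrc1, a core subunit of complex III, was at 61.2, 66.3, 50.7 and 57.6 CPM in WT and 40.0, 49.9, 47.6 and 44.8 CPM in ACKR2-/- monocytes. The groups did not overlap, by a narrow gap, and the log2 fold change was -0.37 (SE 0.12, edgeR adjusted p = 0.156). Atp5a1, the alpha subunit of the complex V catalytic head, was at 61.5, 62.4, 47.6 and 56.0 CPM in WT and 32.2, 43.9, 41.7 and 54.6 CPM in ACKR2-/- monocytes. Its groups overlapped, with a log2 fold change of -0.40 (SE 0.16, edgeR adjusted p = 0.233). In all, 5 nuclear genes were higher without overlap of the genotypes (Cox6a2, Ndufb4, Cox7b, Ndufa7 and Uqcrq), against 4.94% of all genes, and 1 was lower (5.25%).

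By complex, complex I had 31 of 35 tested nuclear genes with a positive log2 fold change (median 0.20), complex IV 14 of 15 (0.17), complex III 6 of 8 (0.14) and the complex I assembly factors 6 of 8 (0.15). Complex II had 3 of 4 (0.09) and complex V 10 of 17 (0.11). Shorter genes outside the set also leaned upward. Among other protein-coding genes with 700 to 1000 exonic bases the median was 0.16, with 66.7% higher, while the 12 members of that length had a median of 0.14. Between 1000 and 1500 bases the medians were 0.22 for 18 members and 0.08 for other genes, and over 2500 bases they were 0.10 and -0.03. With total counts in place of TMM, the median of all genes moved from 0.00 to 0.12 and that of the nuclear genes to 0.26, with 80 of 87 higher.

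**Figure D3:**
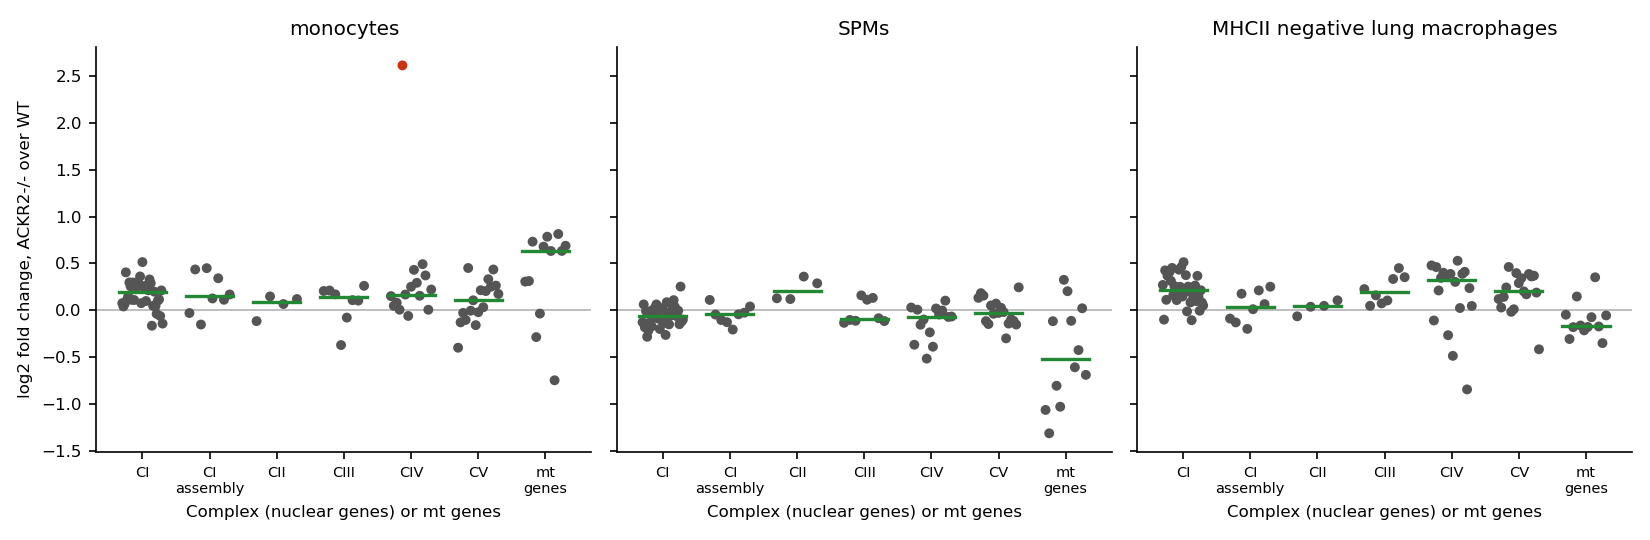
log2 fold change of ACKR2-/- over WT (y axis) for each tested gene (points), by complex for nuclear genes and together for mitochondrial (mt) genes (x axis), in monocytes, SPMs and lung macrophages. In monocytes complex I has a median of 0.20 and Cox6a2 stands alone at 2.61, and in SPMs the mitochondrial genes reach down to -1.31.

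The mitochondrial genes of monocytes varied widely among the ACKR2-/- libraries. mt-Cytb, the only complex III subunit made in mitochondria, was at 783, 927, 1020 and 942 CPM in WT and 2425, 702, 975 and 1775 CPM in ACKR2-/- monocytes. mt-Co1, which carries the oxygen-reducing centre of complex IV, was at 650, 581, 855 and 1410 CPM in WT and 2625, 687, 927 and 1568 CPM in ACKR2-/- monocytes. mt-Nd4, a proton-pumping subunit of complex I, was at 197, 206, 249 and 212 CPM in WT and 650, 160, 232 and 476 CPM in ACKR2-/- monocytes. For all 3 genes ACKR2-/- 1 and 4 were above every WT library, while ACKR2-/- 2 and 3 lay within or below the WT range.

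The log2 fold changes were 0.68 for mt-Cytb, 0.73 for mt-Co1 and 0.81 for mt-Nd4, and those of mt-Nd1, mt-Nd2, mt-Nd5 and mt-Nd6, further subunits of the complex I membrane arm, were 0.78, 0.63, 0.63 and 0.69. The smallest edgeR adjusted p among these 7 genes was 0.234, for mt-Nd1. mt-Atp6 and mt-Atp8, which belong to the membrane part of complex V, both had 0.31, and mt-Co3, a complex IV core subunit, -0.04. The median over the 12 tested mitochondrial genes was 0.63, and 0.26 without ACKR2-/- 1.

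Genes with a nearly whole copy on chromosome 1 are given apart. mt-Co2, which receives electrons from cytochrome c, was at 24.2, 31.0, 30.2 and 28.9 CPM in WT and 28.0, 12.7, 14.5 and 38.5 CPM in ACKR2-/- monocytes. mt-Nd3, a small complex I core subunit, was at 7.23, 7.96, 8.96 and 8.89 CPM in WT and 5.81, 2.73, 3.89 and 7.22 CPM in ACKR2-/- monocytes. For mt-Nd3 every ACKR2-/- library was below every WT library, with WT 1 and ACKR2-/- 4 almost equal, and the log2 fold change was -0.75 (SE 0.27, edgeR adjusted p = 0.195).

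Summed over the genes with no copy, the share of gene counts was 0.168 to 0.220% in WT monocytes and 0.609, 0.152, 0.205 and 0.408% in the ACKR2-/- libraries. Summed over the genes with a nearly whole copy it was 0.00988 to 0.0122% in WT and 0.0167, 0.00557, 0.00751 and 0.0187% in ACKR2-/- libraries. All listed copies, those of mt-Co1 and mt-Nd4 included, took 0.0174 to 0.0237% in WT and 0.0127 to 0.0430% in ACKR2-/- monocytes. In both classes ACKR2-/- 1 and 4 were the highest and ACKR2-/- 2 the lowest library. Of 9 copy pseudogenes listed, 7 were tested and none was called, 6 having a positive log2 fold change. How reads were divided between the genes and their copies was not tested.

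**Figure D4:**
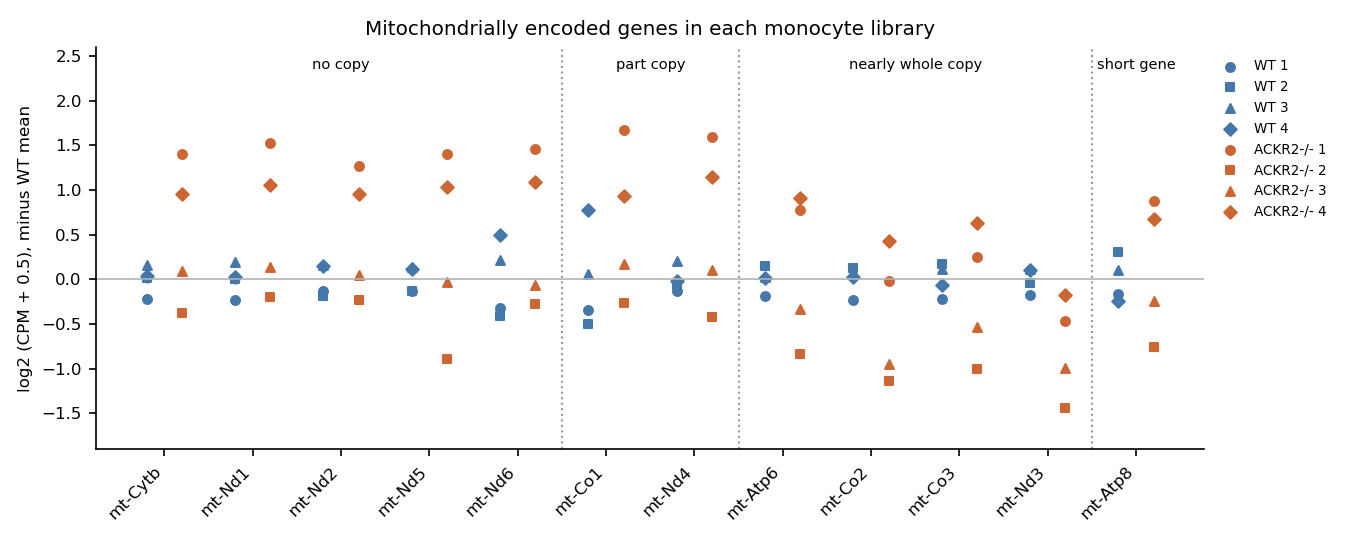
log2 of CPM + 0.5 minus the WT mean (y axis) of each mitochondrially encoded gene (x axis) in the 4 WT and 4 ACKR2-/- monocyte libraries, marked by number. The median over genes is 1.34 for ACKR2-/- 1, 0.94 for ACKR2-/- 4, -0.04 for ACKR2-/- 3 and -0.59 for ACKR2-/- 2.

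Related mitochondrial gene lists gave no call in monocytes. Of 18 genes of the tricarboxylic acid cycle, which feeds the chain with NADH and succinate, 5 were higher and none was called (median -0.07). Of 22 tested assembly factors of complexes III and IV, 17 were higher and none was called (median 0.07), and 7 of 8 assembly factors of complexes II and V were higher (0.19). Among 21 genes of mitochondrial DNA maintenance and transcription, 15 were higher (0.09). Of 24 electron carriers and exchange proteins 12 were higher (0.00), and of 10 tested regulators of mitochondrial biogenesis 5 (0.00).

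In SPMs no oxidative phosphorylation gene was called between genotypes among 12997 genes tested. Among all genes 0.0308% were called higher and 0.0154% lower. No member reached an unadjusted p under 0.05 with edgeR, against 2.93% of all genes higher and 2.52% lower, and DESeq2 called none. The nuclear genes had a median log2 fold change of -0.05, equal to that of all genes, with 31 of 87 positive against 44.3% of all genes. Under total counts the median became 0.09 (all genes 0.07) and 68 of 87 were positive, so no direction can be given for them.

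The 4 genes of complex II, which oxidises succinate and is also an enzyme of the tricarboxylic acid cycle, were all positive with a median of 0.21, and none was called. Sdhc, one of its membrane anchors, was at 22.9, 51.4, 50.8 and 50.7 CPM in WT and 57.1, 53.5, 48.4 and 66.4 CPM in ACKR2-/- SPMs. WT SPM 1 was low and the other WT libraries lay within the ACKR2-/- range (log2 fold change 0.36, SE 0.26, edgeR adjusted p = 0.788). Ndufv1, the NADH-binding subunit of complex I, showed the same low library, at 32.3, 60.1, 53.4 and 55.7 CPM in WT and 62.9, 58.0, 62.6 and 56.5 CPM in ACKR2-/- SPMs (log2 fold change 0.25, SE 0.21, edgeR adjusted p = 0.797).

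Atp5j2, a membrane subunit of complex V, was at 489, 467, 485 and 461 CPM in WT and 371, 433, 335 and 407 CPM in ACKR2-/- SPMs. It was the only member whose SPM groups did not overlap (1.6% of all genes were lower and 1.8% higher without overlap), and the log2 fold change of -0.30 (SE 0.17) had an edgeR adjusted p of 0.788. Cox6b2, the testis form of complex IV subunit 6b, was at 5.99, 8.05, 7.04 and 8.54 CPM in WT and 4.41, 7.19, 6.29 and 2.85 CPM in ACKR2-/- SPMs, with overlap (log2 fold change -0.52, SE 0.30, edgeR adjusted p = 0.788).

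The mitochondrial genes of SPMs were dominated by 2 WT libraries. mt-Atp6 was at 22.7, 26.6, 170 and 17.7 CPM in WT and 25.3, 24.3, 18.9 and 44.5 CPM in ACKR2-/- SPMs, and mt-Atp8 at 1.29, 1.14, 11 and 0.739 CPM in WT and 1.42, 0.807, 1.34 and 1.89 CPM in ACKR2-/- SPMs. mt-Co3 was at 23.2, 35.5, 171 and 14.8 CPM in WT and 20.7, 23.5, 22.9 and 52.4 CPM in ACKR2-/- SPMs. WT SPM 3, the least deeply sequenced library, stood far above all others for these neighbouring genes. For mt-Co2 it was at 71.9 CPM against 9.68 to 30.4 CPM elsewhere. Of these genes, all but mt-Atp8 have a nearly whole annotated copy on chromosome 1. Only annotated transcripts were searched, so a copy of mt-Atp8 outside them would have been missed. Such bases lie between the copies of mt-Co2 (chr1:24614885-24615565) and mt-Atp6 (chr1:24613974-24614651). Genes with such a copy took 0.037% of gene counts in WT SPM 3, against 0.00407 to 0.0138% in other SPM libraries. The listed copies took 0.0280%, against 0.00283 to 0.0106%. Genes with no copy took 0.100%, within the 0.0741 to 0.207% of the others. How reads were divided between genes and copies was not tested.

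A different library, WT SPM 1, stood apart for mt-Nd4 and mt-Nd6. mt-Nd4 was at 422, 115, 123 and 85.2 CPM in WT and 114, 117, 152 and 172 CPM in ACKR2-/- SPMs. mt-Nd6, the only protein read from the opposite strand of the mitochondrial genome, was at 119, 26.3, 18 and 12.7 CPM in WT and 19.2, 19.4, 25.2 and 45.5 CPM in ACKR2-/- SPMs. The median log2 fold change over the 12 mitochondrial genes was -0.52, but it was 0.16 without WT SPM 1 and 0.02 without WT SPM 3. mt-Atp8 changed from -1.31 to 0.38 without WT SPM 3, and mt-Cytb, not led by either library, was at 494, 547, 383 and 301 CPM in WT and 424, 415, 628 and 694 CPM in ACKR2-/- SPMs (log2 fold change 0.32, SE 0.26, edgeR adjusted p = 0.789).

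The related lists in SPMs held no call either. Of 17 tested tricarboxylic acid cycle genes 14 were higher (median 0.07), of 24 electron carriers and exchange proteins 20 (0.16), of 23 assembly factors of complexes III and IV 11 (0.00), and of 8 assembly factors of complexes II and V 3 (-0.03). Of 21 genes of mitochondrial DNA maintenance and transcription 9 were higher (-0.06), of 10 biogenesis regulators 4 (-0.36), and of 5 tested copy pseudogenes none (-1.29).

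In MHCII negative lung macrophages no gene at all was called between genotypes by edgeR among 16824 tested, so the background was 0% in both directions. DESeq2 called no member. Nevertheless 77 of 91 nuclear oxidative phosphorylation genes had a positive log2 fold change, against 44.8% of all genes, with a median of 0.21 (all genes -0.04). At an unadjusted p under 0.05, 1 member was higher and none lower, against 1.24% and 1.72% of all genes.

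That member was Cox7a2l, a relative of Cox7a2 grouped here with complex IV. It was at 112, 79.8, 108, 72.1 and 106 CPM in WT and 110, 139, 99.8, 129 and 212 CPM in ACKR2-/- lung macrophages. The groups overlapped, ACKR2-/- 5 was the highest, and the log2 fold change was 0.53 (SE 0.22, unadjusted p = 0.0365, edgeR adjusted p = 1.00).

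Ndufb11, an accessory complex I subunit, was at 90.9, 78.8, 102, 64.6 and 88.1 CPM in WT and 105, 126, 89.96, 83.1 and 169 CPM in ACKR2-/- lung macrophages. Ndufa11, a further accessory subunit whose promoter carried the nuclear respiratory factor 1 motif, was at 91.3, 76.8, 86.6, 75.9 and 88.0 CPM in WT and 96.0, 116, 72.4, 102 and 176 CPM in ACKR2-/- libraries. ACKR2-/- 5 was again the highest for both, and the log2 fold changes of 0.43 each had an edgeR adjusted p of 1.00. In the other direction, Atp5s, named for a coupling factor of complex V, was at 9.02, 7.13, 12.3, 5.76 and 4.48 CPM in WT and 5.88, 8.17, 6.88, 4.18 and 3.83 CPM in ACKR2-/- libraries, with overlap (log2 fold change -0.42, SE 0.33). The muscle isoform Cox8b had 84 counts in all over WT libraries, at 0.353 to 1.42 CPM, and 0.161 to 0.851 CPM in ACKR2-/- libraries (log2 fold change -0.85, SE 0.63).

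By complex, 32 of 36 nuclear complex I genes, 8 of 8 complex III genes, 14 of 18 complex IV genes and 15 of 17 complex V genes were positive in ACKR2-/- lung macrophages, with medians of 0.21, 0.19, 0.32 and 0.20. The complex I assembly factors (5 of 8, median 0.04) and complex II (3 of 4, 0.04) were shifted less. Without ACKR2-/- 5 the nuclear median was 0.06, with 64 of 91 positive. Without the libraries labelled WT 3 and WT 5, whose markers or Ackr2 counts went against their labels, it was 0.34 with 83 of 91 positive, and still no gene was called.

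Other values moved with this comparison. Outside the set, protein-coding genes with under 700 exonic bases had a median of 0.21 in ACKR2-/- lung macrophages (members 0.25), those with 1000 to 1500 bases 0.09 (members 0.31), and those over 2500 bases -0.06 (members 0.09). All 7 NK cell markers had an unadjusted p under 0.05 in the higher direction, and their sum was 163 to 362 CPM in WT and 319 to 1975 CPM in ACKR2-/- libraries. The 19 stress and immediate early genes summed to a median of 29151 CPM in WT (25818 to 42353) and 21989 CPM in ACKR2-/- libraries (18527 to 31578), 4 of them with an unadjusted p under 0.05 in the lower direction with edgeR and none called. The part of any of these in the shift of the nuclear genes was not tested. The mitochondrial genes leaned the other way, with 2 of 12 positive and a median of -0.17, which was -0.48 without ACKR2-/- 3 and -0.02 without WT 4.

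Among the lung mitochondrial genes, mt-Nd5, a proton-pumping subunit of complex I, was at 170, 291, 221, 352 and 333 CPM in WT and 166, 176, 417, 171 and 141 CPM in ACKR2-/- lung macrophages. ACKR2-/- 3 was above every WT library and the other ACKR2-/- libraries were low (log2 fold change -0.35, SE 0.32, edgeR adjusted p = 1.00). mt-Co1 was at 1035, 1215, 1224, 1782 and 1201 CPM in WT and 755, 938, 1975, 984 and 1047 CPM in ACKR2-/- libraries, with ACKR2-/- 3 again the highest and ACKR2-/- 1, 2 and 4 below every WT library. The library highest for the mitochondrial genes was the lowest of the ACKR2-/- libraries for the nuclear share, at 0.955%. Related lists in lung macrophages gave 8 of 18 tricarboxylic acid cycle genes higher (median -0.02), 18 of 24 assembly factors of complexes III and IV (0.15), 3 of 8 of complexes II and V (-0.05), 15 of 24 electron carriers and exchange proteins (0.03), 12 of 21 genes of mitochondrial DNA (0.02), 7 of 10 biogenesis regulators (0.12) and 2 of 6 copy pseudogenes (-0.02).

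Whether the genotype effect on a gene differed between cell types was tested directly in 1 fit over 17792 genes and all 26 libraries. No member was called in any of the 3 differences, in which 0.225% and 0.0281% of all genes (monocytes less SPMs, higher and lower), 0.146% and 0.00562% (monocytes less lung) and 0.0169% and 0.0225% (SPMs less lung) were called. At an unadjusted p under 0.05 with edgeR, 1 member was lower in the first difference (3.66% of all genes, and 3.81% higher), 3 were higher in the second (4.14%, and 1.93% lower) and none was in the third (3.65% and 2.5%). Ndufaf4, a complex I assembly factor, had the smallest p, with a difference of log2 fold changes of 0.62 between monocytes and lung macrophages (SE 0.25, unadjusted p = 0.0182, edgeR adjusted p = 0.666). For Cox6a2 the difference was 2.17 against lung macrophages (SE 1.04, edgeR adjusted p = 0.822) and 1.18 against SPMs (SE 1.27, edgeR adjusted p = 0.882), so its rise in monocytes was not shown to differ from the other cell types. Atp5a1 differed by -0.60 between monocytes and SPMs (SE 0.29, edgeR adjusted p = 0.656).

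The 3 WT cell types were compared in the same fit. Each cell type came in its own table, so cell type and table cannot be told apart, and the 3 comparisons share their WT groups. The lung table closes with summary lines of another format than the counter named in the notes writes, so it may have been counted differently from the others. The scaling mattered most here. TMM factors were 1.16 to 1.54 in monocytes, 0.490 to 0.734 in SPMs and 1.14 to 1.46 in lung macrophages, and values are therefore given under TMM and under total counts, the latter chosen after the data were seen. The 19 stress and immediate early genes summed to 25818 to 42353 CPM in WT lung macrophages, 2141.8 to 5126.6 CPM in WT monocytes and 620.94 to 800.55 CPM in WT SPMs. These sums were scaled by TMM within each cell type and not in the joint fit. The part of these genes in the comparisons was not tested.

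WT lung macrophages had less of most nuclear genes than either other cell type. Between WT SPMs and WT lung macrophages, 78 of 91 nuclear genes were called higher in SPMs and 5 lower (23.2% and 39.1% of all genes), with a median log2 fold change of 2.27 (all genes -0.41). Under total counts, 60 were called higher and 15 lower (9.47% and 66.4% of all genes), with a median of 0.99 (all genes -1.62), and 60 genes were called higher under both scalings. Between WT monocytes and WT lung macrophages, 73 were called higher and 6 lower (24.4% and 39.5% of all genes), with a median of 1.12 (all genes -0.34). Total counts gave nearly the same, with 71 and 6 calls (22% and 40.1% of all genes) and a median of 1.04, and 70 genes were called higher under both.

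For most nuclear genes, WT monocytes and WT SPMs had no order that held under both scalings. Under TMM, 2 nuclear genes were called higher in monocytes and 63 lower (20.1% and 21.8% of all genes), with a median of -1.04 (all genes 0.00). Under total counts, 28 were called higher and 15 lower (46.9% and 9.08% of all genes), with a median of 0.16 (all genes 0.96), and 38 of the 91 nuclear genes changed sign. Only 15 nuclear genes were called lower in monocytes under both scalings, among them Uqcr10, Uqcr11, Uqcrb and Uqcrc1 of complex III, and only Cox6b2 and Ndufs1 were called higher under both. The call of Cox6b2 was lost with DESeq2 and with RLE factors.

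**Figure D5:**
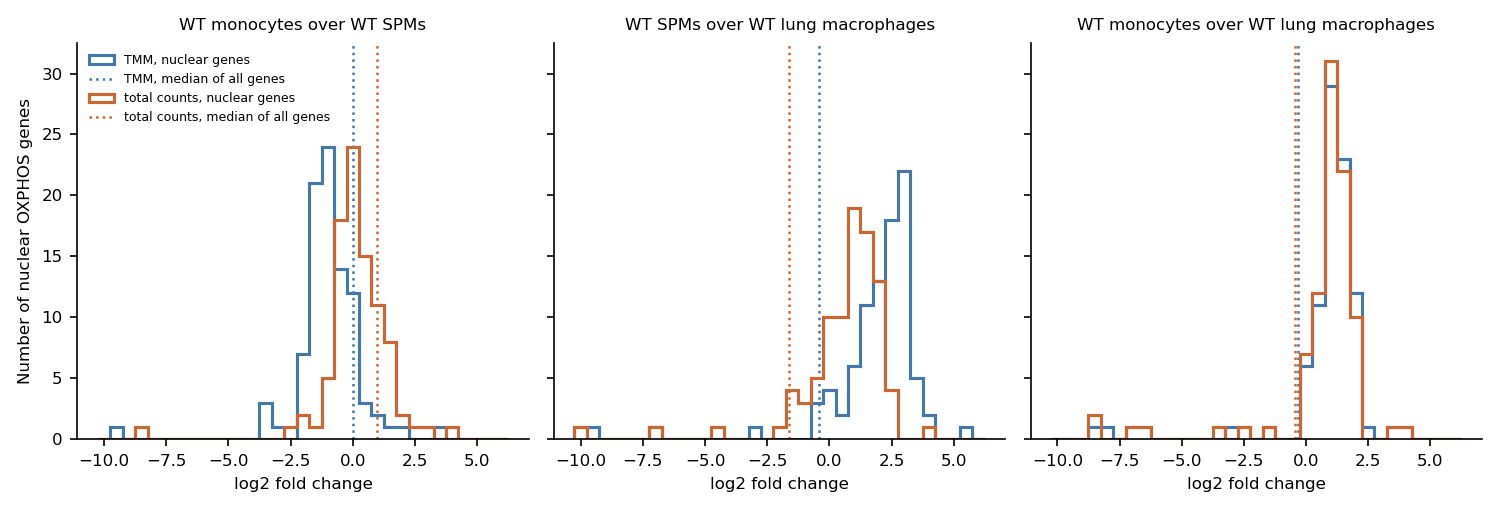
Number of nuclear genes (y axis) by log2 fold change (x axis) in the 3 WT cell type comparisons, scaled by TMM or by total counts, with dotted lines at the median of all genes. The distribution of monocytes against SPMs moves from a median of -1.04 to 0.16 with the scaling, while that of monocytes against lung macrophages stays near 1.12 and 1.04.

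By complex, under TMM, 34 of 36 complex I genes, 8 of 8 complex III genes, 13 of 18 complex IV genes and 14 of 17 complex V genes were called higher in WT SPMs than in WT lung macrophages, with medians of 2.34, 2.68, 2.32 and 2.27. Against lung macrophages, WT monocytes had 31, 7, 12 and 15 calls in these complexes, with medians of 1.21, 0.98, 1.04 and 1.34. Complex II had 2 of 4 genes called higher in each of these comparisons. Under total counts, 29, 5, 12 and 11 genes of complexes I, III, IV and V were called higher in SPMs than in lung macrophages, with medians of 1.07, 1.42, 1.07 and 1.02, while complex II had 1 called higher and 2 lower. The counts for monocytes were then 31, 6, 12 and 14, and 2 for complex II.

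Levels between cell types are given as unscaled CPM, that is CPM of gene counts without a TMM factor, which compare a gene between libraries and not with other genes. Sdha, its flavoprotein, was at 239 ± 21.8 (SD, n = 4) in WT monocytes, 89.9 ± 4.73 (n = 4) in WT SPMs and 272 ± 41.7 (n = 5) in WT lung macrophages. Sdhb, its iron-sulphur subunit, was at 388 ± 27.9, 277 ± 63.8 and 192 ± 37.3, and the anchors Sdhc and Sdhd were at 128 ± 4.65, 40.9 ± 9.36 and 121 ± 24.3, and at 360 ± 10.5, 231 ± 74.0 and 167 ± 43.9. Sdha and Sdhc were thus lowest in SPMs, with monocytes and lung macrophages overlapping. Sdhb and Sdhd were highest in monocytes by their means, with SPMs overlapping lung macrophages for both and monocytes for Sdhb. Under TMM this order turned. Sdhb was then called lower in monocytes than in SPMs (log2 fold change -0.74, SE 0.24, edgeR adjusted p = 0.0132, against 0.49 under total counts), and Sdhd was at -0.60 (SE 0.27, edgeR adjusted p = 0.0780), against 0.64 under total counts. Sdha and Sdhc, called lower in SPMs than in both other cell types under total counts, were not called in any comparison under TMM.

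Some core subunits were low in SPMs on this scale. Ndufs1, the largest complex I subunit, was at 69.4 ± 3.21 unscaled CPM in WT monocytes, 17.6 ± 3.23 in SPMs and 60.7 ± 9.72 in lung macrophages. It was called higher in monocytes than in SPMs (log2 fold change 0.82, SE 0.17, edgeR adjusted p = 0.000286) and lower in SPMs than in lung macrophages (-0.55, SE 0.16, edgeR adjusted p = 0.00476). Ndufv1 had the same order, at 154 ± 6.71, 47.3 ± 6.59 and 115 ± 13.5. The iron-sulphur protein of complex III, Uqcrfs1, was at 242 ± 12.9, 122 ± 33.7 and 171 ± 23.1, and Atp5b, the catalytic beta subunit of complex V, at 1313 ± 41.3, 492 ± 118 and 1023 ± 167. The means of all 4 were lowest in SPMs on this scale, and for Uqcrfs1 the SPM and lung libraries overlapped. For all but Ndufs1 this depended on the scaling. Between SPMs and lung macrophages, Uqcrfs1 was called higher in SPMs under TMM (log2 fold change 0.82, SE 0.24, edgeR adjusted p = 0.00541) against -0.50 under total counts, Atp5b was at 0.24 (SE 0.22, edgeR adjusted p = 0.356) against -1.07, and Ndufv1 at -0.01 (SE 0.19, edgeR adjusted p = 0.985) against -1.29.

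Some genes differed widely between tables, and overlapping gene models are given for 3 of them. Ndufs3, a core complex I subunit, was at 0.204 ± 0.239 unscaled CPM in WT monocytes, 77.6 ± 13.4 in SPMs and 73.7 ± 6.55 in lung macrophages. Its 41 counts over all monocyte libraries stood against 17721 in SPM and 18597 in lung libraries, and Kbtbd4, which overlaps its end on the opposite strand of chromosome 2, had 0, 593 and 5961 counts. Uqcrc1 was at 56.4 ± 4.98 in WT monocytes, 247 ± 85.6 in SPMs and 349 ± 50.2 in lung macrophages, and Atp5a1 at 54.4 ± 5.81, 243 ± 30.3 and 532 ± 37.9. These 3 genes were lower in WT monocytes than in both macrophage types, and were called so by edgeR under both scalings.

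Conversely, Ndufb8, an accessory complex I subunit, was at 207 ± 9.81 unscaled CPM in WT monocytes, 244 ± 70.3 in SPMs and 14.2 ± 3.82 in lung macrophages. Its log2 fold change was 5.39 between SPMs and lung macrophages (SE 0.29, edgeR adjusted p = 1.91e-13) and 3.93 between monocytes and lung macrophages (SE 0.27, edgeR adjusted p = 7.51e-12). The gene model Gm20538 overlaps it on the same strand, with 3, 2 and 0 counts in the 3 tables. Atp5o, the stalk subunit that ties the catalytic head of complex V to its membrane part, was at 338 ± 33.4, 192 ± 72.9 and 35 ± 9.83, and overlaps the second model of the same name. Whether the tables' gene models had a part in these differences was not tested.

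Other genes among the largest differences were small subunits. Under TMM, Atp5k of complex V and Uqcr10 of complex III were higher in WT SPMs than in lung macrophages by log2 fold changes of 3.76 (SE 0.24) and 3.57 (SE 0.26), and Ndufb9 of complex I and Atp5k were higher in monocytes than in lung macrophages by 2.31 (SE 0.23) and 2.04 (SE 0.23). Ndufa12, an accessory complex I subunit, was lower in monocytes than in SPMs by -2.87 (SE 0.29), at 48.1 ± 9.09 unscaled CPM in monocytes, 153 ± 22.2 in SPMs and 49.8 ± 20.2 in lung macrophages. All 5 differences were called by edgeR under both scalings.

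The paired isoforms of complex IV separated the cell types at low level. Cox4i2, the lung-enriched form of subunit 4, was at 7.61 ± 5.17 unscaled CPM in WT lung macrophages (3.39 to 16.4), was listed at 0 in all WT SPM libraries and had 5 counts in WT monocytes. Ndufa4l2, a hypoxia-responsive relative of Ndufa4, was at 5.99 ± 4.09 in WT lung macrophages (1.79 to 12.6), with 1 count in WT monocytes and 0 in WT SPMs. Cox8b was at 0.759 ± 0.417 in lung macrophages and 0 in all other WT libraries. A count of 0 allows up to 0.102 to 0.235 unscaled CPM in a WT SPM library and 0.157 to 0.194 in a WT monocyte library, counting error only. All 3 genes were called lower in monocytes and in SPMs than in lung macrophages by edgeR, under both scalings, and all 5 WT lung libraries were above these limits.

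The ubiquitous partners ran the other way. Cox4i1 was at 846 ± 50.3 unscaled CPM in WT monocytes, 637 ± 53.8 in SPMs and 390 ± 78.6 in lung macrophages, Ndufa4 at 375 ± 42.1, 346 ± 81.3 and 103 ± 24.5, and Cox8a at 441 ± 24.5, 517 ± 87.2 and 216 ± 29.8. Lung macrophages were the lowest for all 3. Markers of other lung cells were present in the same libraries. The 7 pericyte markers summed to 11.8 to 45.2 CPM in WT lung libraries and at most 0.615 CPM in WT monocytes and 0.176 CPM in WT SPMs, and the 7 endothelial markers to 152 to 880 CPM in WT lung libraries, 11.9 to 14.2 CPM in WT monocytes and 4.54 to 5.08 CPM in WT SPMs. The study's lung gate for these macrophages took cells positive for CD45, CD11b and F4/80. The 8 epithelial markers summed to 419 to 16965 CPM in the same WT lung libraries. The part of any of these other lung cells in the lung values of Cox4i2, Ndufa4l2 and Cox8b was not tested.

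Cox6a2 was at 1.11 ± 0.247 unscaled CPM in WT monocytes, 0.138 ± 0.109 in SPMs and 3.04 ± 1.02 in lung macrophages, and its partner Cox6a1 at 572 ± 31.4, 772 ± 38.9 and 304 ± 48.1. Cox6b2 was at 36.5 ± 1.64 in monocytes, 7.05 ± 0.644 in SPMs and 9.96 ± 5.17 in lung macrophages, with a log2 fold change of 1.19 between monocytes and SPMs (SE 0.42, edgeR adjusted p = 0.0236). That call was lost with DESeq2 (adjusted p = 0.0521), with RLE factors (edgeR adjusted p = 0.0610) and without WT monocyte 2, WT SPM 1 or WT SPM 3 (edgeR adjusted p = 0.0503, 0.0629 and 0.0514). Its partner Cox6b1 was at 436 ± 33.8, 634 ± 30.6 and 215 ± 30.3. Cox7a1, the muscle form of subunit 7a, was at 0.865 ± 0.301, 4.51 ± 1.09 and 0.910 ± 0.722, so it was highest in SPMs and overlapped between the other two. Cox7a2 was at 263 ± 27.1, 217 ± 18.6 and 96.0 ± 20.1, and Cox7a2l at 131 ± 9.26, 105 ± 17.5 and 95.4 ± 14.7. The testis forms Cox7b2 and Cox8c were listed at 0 in all 26 libraries.

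Atp5g1, Atp5g2 and Atp5g3 encode the same mature subunit of the complex V rotor from separate genes. Atp5g1 was at 210 ± 20.1 unscaled CPM in WT monocytes, 215 ± 31.9 in SPMs and 80.3 ± 23.1 in lung macrophages, Atp5g2 at 111 ± 4.81, 64.2 ± 17.8 and 58.8 ± 11.9, and Atp5g3 at 509 ± 31.2, 405 ± 73.6 and 207 ± 27.7. Atp5g1 and Atp5g3 were lowest in lung macrophages, without overlap, whereas Atp5g2 was highest in monocytes and overlapped between SPMs and lung macrophages. Under TMM, Atp5g2 was at -0.37 between monocytes and SPMs (SE 0.25, edgeR adjusted p = 0.244) against 0.79 under total counts, and it was called higher in SPMs than in lung macrophages without overlap (1.35, SE 0.23, edgeR adjusted p = 2.03e-05), against 0.12 under total counts.

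The mitochondrial genes are again given by their chromosome 1 copies. Under both scalings, mt-Atp6, mt-Co2 and mt-Co3 were called higher in WT SPMs and in WT monocytes than in WT lung macrophages, and mt-Nd3 was called higher in monocytes than in lung macrophages. All 4 have a nearly whole copy. Their TMM log2 fold changes between monocytes and lung macrophages were 1.64 (SE 0.50), 1.41 (SE 0.42), 1.43 (SE 0.48) and 2.13 (SE 0.47), with edgeR adjusted p-values of 0.00642, 0.00494, 0.0118 and 0.000352. For mt-Atp6 between SPMs and lung macrophages, the value was 3.64 and fell to 2.22 without WT SPM 3. Of the genes without a copy, mt-Nd2 was called lower in monocytes than in lung macrophages under both scalings (-1.04, SE 0.32, edgeR adjusted p = 0.00671), and mt-Cytb differed by -0.03 (SE 0.30, edgeR adjusted p = 0.943). Between monocytes and SPMs, 6 mitochondrial genes were called lower in monocytes under TMM and none under both scalings.

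Of the tricarboxylic acid cycle genes, under TMM, 8 of 18 were called higher and none lower in monocytes against SPMs (median 0.44), 5 higher and 6 lower in SPMs against lung macrophages (-0.08), and 8 higher and 1 lower in monocytes against lung macrophages (0.46). Under total counts these became 18 higher and none lower (1.67), none higher and 15 lower (-1.36), and 6 higher and 1 lower (0.37). The assembly factors of complexes III and IV had 16 of 24 called higher in SPMs than in lung macrophages (median 0.86) and 14 of 24 in monocytes than in lung macrophages (0.87), against 8 (-0.42) and 14 (0.78) under total counts. Genes of mitochondrial DNA maintenance and transcription were called higher in monocytes than in SPMs in 10 of 21 cases (0.56), and in 20 under total counts (1.73).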

How the data were processed

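The authors deposited raw read counts per gene in 3 tables, 1 per cell type. According to the submitters' processing notes and the study's methods, RNA was amplified with a SMARTer kit, aligned to mm10 with HISAT2 2.0.5 and counted with featureCounts 1.5.0-p3. No column was left unmapped. The lung table closes with 5 summary lines in the HTSeq format, so its counter is uncertain. These lines held 56.263% of its counts and were left out. Annotations differ between the tables, so genes were joined by identifier.

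Each genotype comparison used the table of its cell type. Differences between genotype effects and WT cell types used 1 joint fit of all 26 libraries. Counts were filtered with filterByExpr (minimum count 10, minimum total 15), scaled by TMM and tested with edgeR 4.0.16 (R 4.3.3) over all genes, calling genes by the thresholds given above (0.05 for the adjusted p, 0.5 for the size of the log2 fold change). DESeq2 1.42.0 was an alternative, as were other scalings, filters and leaving out each library. Libraries were samples of sorted cells, and p-values measure only the spread between them. No 2 libraries were identical. The fit was tested on simulated counts. Sequences were read from RefSeq (GRCm38.p6) and GRCm38 with Python 3.11.15.

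The members and gene lists were chosen with earlier results of these data known. Named were all mitochondrial genes, called members, the 3 smallest p-values in each direction per genotype comparison, the 5 largest called differences per direction between cell types, the isoform sets, complex II, core subunits and called genes of the other lists.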

Additional observations from a re-analysis of the deposited data

Results flagged for a closer look

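In 48 groups of 4 or 5 libraries tested for a single library far from the rest, 5 were picked out by Dixon's criterion, where chance picks about 1 in 20. The nuclear share was 2.71% in ACKR2-/- monocyte library 2 against 2.23 to 2.30% in the other 3. The mitochondrial share was 0.654% in ACKR2-/- lung library 3 against 0.238 to 0.287%, and mt-Nd5 was at 417 CPM in that library against 141 to 176 CPM. Sdhc was at 22.9 CPM in WT SPM library 1 against 50.7 to 51.4 CPM. mt-Atp8 was at 11 CPM in WT SPM library 3 against 0.739 to 1.29 CPM.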

How the results depend on the processing

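In monocytes, 1 member was called higher by genotype, Cox6a2, and it was called under every alternative run. DESeq2 and total counts each called 2 members higher, and leaving out single libraries gave 1 to 3, the 3 being without ACKR2-/- monocyte library 3 (Cox6a2, Ndufb4 and Atp5e). No alternative called a member in SPMs, in lung macrophages or in a difference between genotype effects. Between WT monocytes and SPMs, 2 members were called higher in monocytes and 69 lower. DESeq2 and RLE factors each called 1 higher (without Cox6b2), total counts called 31 higher and 15 lower, and leaving out single libraries gave 1 to 3 higher (1 without WT monocyte library 2, WT SPM library 1 or WT SPM library 3, where Cox6b2 was no longer called) and 58 to 72 lower. Between WT SPMs and lung macrophages 5 members were called lower, against 17 under total counts. The fold change of mt-Co3 between monocyte genotypes (-0.04) turned to 0.11 under total counts and lay between -0.35 and 0.20 when single libraries were left out (0.03 without WT 2, 0.20 without ACKR2-/- 2, 0.11 without ACKR2-/- 3). That of mt-Atp8 between SPM genotypes (-1.31) turned to 0.38 without WT SPM library 3 and reached -1.67 without WT SPM library 4. The cause of these changes was not tested.

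Replicate numbers showed no regular pairing of the samples: deviations of same-numbered WT and ACKR2-/- libraries correlated at -0.13 to 0.37 in monocytes, -0.12 to -0.01 in SPMs and -0.10 to 0.69 in lung macrophages. The WT library correlated best with its own number in 1 of 4 monocyte, 0 of 4 SPM and 1 of 5 lung cases. So few libraries cannot exclude pairing. With a replicate block, 1 member was called in monocytes (Cox6a2, log2 fold change 2.44), 0 in SPMs and 0 in lung macrophages, and the nuclear and mitochondrial medians in monocytes were 0.12 and 0.45. Whether single genes with shifts of the size of the nuclear medians could be called, with 4 or 5 libraries per genotype, was not tested. Members at 0 are limited by the depth given in the text, and mt-Nd4l, at 67, 32 and 38 counts in the 3 tables, was tested in none of them.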
